A study of Homo sapiens with 12 samples.

Results

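The genes described here are 10 members of the intermediate filament and cadherin families, namely vimentin (VIM), nestin (NES), the keratin genes KRT8, KRT18, KRT19 and KRT10, the lamin A/C gene LMNA, and the classical cadherins CDH1, CDH2 and CDH3. They were taken by gene symbol, as every probe that the array annotation assigns to one of these symbols, which gave 14 of the 48803 probes of the array. Of the 10 genes, 6 (VIM, NES, KRT18, KRT10, LMNA and CDH2) passed the detection filter and stood among the 10333 genes tested. The other 4 (KRT8, KRT19, CDH1 and CDH3) were above background on 0 of 12 arrays.

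RNA came from SW-13, an established human adrenal carcinoma line that lacks BRG1, the ATPase of the SWI/SNF chromatin remodelling complex encoded by SMARCA4. Cells were transduced with an adenovirus for GFP (Ad-GFP) or for BRG1 fused to GFP (Ad-BRG1), and either left untreated or given IFNγ for 6 h. All 4 groups therefore carried a virus and GFP, and no uninfected group was analysed here. Each group had 3 arrays, which the methods call biological replicates, and the methods state that the Ad-BRG1 dose was set to give the BRG1 level of HeLa cells.

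Intermediate filaments are the tissue-specific part of the cytoskeleton. Vimentin is the filament protein of mesenchymal cells and is also made by many cultured carcinoma lines, and SW-13 is known for switching between states with and without vimentin. Nestin, a marker of progenitor cells, needs a partner such as vimentin to form filaments. Keratins polymerise only as pairs of a type I and a type II protein, and KRT8 with KRT18 is the pair of simple epithelia. Lamins form the meshwork under the inner nuclear membrane. Classical cadherins hold cells together at adherens junctions through catenins and actin, with E-cadherin (CDH1) typical of epithelia, N-cadherin (CDH2) of neural and mesenchymal cells and P-cadherin (CDH3) of basal epithelium and placenta.

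Promoter sequences were available for 6 of the 10 genes, from RefSeq on GRCh38.p14. Those of NES, LMNA and CDH2 are shown because these genes were raised together by BRG1, that of KRT10 because it was the member lowered by BRG1 in both treatments, and that of VIM because its level was nearly flat. Each run is the 250 bases before the annotated start, 5′ to 3′ on the gene's strand, and where LMNA and CDH2 have several starts the outermost is shown. Capitals mark matches, on either strand, to the TATA box, read as TATAAA, or to the GC box of Sp family factors, read as GGGCGG.
NES, chr1:156677408-156677657, minus strand: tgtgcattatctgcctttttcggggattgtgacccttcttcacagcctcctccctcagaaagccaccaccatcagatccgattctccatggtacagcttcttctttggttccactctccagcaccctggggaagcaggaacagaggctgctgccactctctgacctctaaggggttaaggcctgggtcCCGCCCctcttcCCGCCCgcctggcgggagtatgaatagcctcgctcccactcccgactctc
LMNA, chr1:156082323-156082572, plus strand: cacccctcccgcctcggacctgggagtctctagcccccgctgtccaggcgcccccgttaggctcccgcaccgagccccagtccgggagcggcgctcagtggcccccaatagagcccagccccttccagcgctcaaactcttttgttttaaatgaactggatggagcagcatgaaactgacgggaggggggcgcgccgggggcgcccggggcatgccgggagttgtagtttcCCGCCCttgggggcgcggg
CDH2, chr18:28177131-28177380, minus strand: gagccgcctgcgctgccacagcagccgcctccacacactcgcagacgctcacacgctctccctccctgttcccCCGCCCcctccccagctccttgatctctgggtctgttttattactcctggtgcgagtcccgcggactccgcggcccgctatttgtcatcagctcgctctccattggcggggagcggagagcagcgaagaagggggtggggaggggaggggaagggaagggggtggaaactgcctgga
KRT10, chr17:40822615-40822864, minus strand: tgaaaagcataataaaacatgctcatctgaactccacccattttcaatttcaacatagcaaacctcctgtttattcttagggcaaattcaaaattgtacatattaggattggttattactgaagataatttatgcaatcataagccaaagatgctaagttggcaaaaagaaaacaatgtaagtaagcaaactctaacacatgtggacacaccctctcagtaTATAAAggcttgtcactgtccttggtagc
VIM, chr10:17227991-17228240, plus strand: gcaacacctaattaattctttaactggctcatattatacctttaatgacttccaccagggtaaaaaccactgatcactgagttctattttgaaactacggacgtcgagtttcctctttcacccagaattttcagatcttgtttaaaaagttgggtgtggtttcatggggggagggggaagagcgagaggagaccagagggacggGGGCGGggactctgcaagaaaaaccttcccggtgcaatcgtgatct

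In these windows the GC box had 2 matches for NES and 1 match each for LMNA, CDH2 and VIM, against 42.6% of all 35116 promoters in the table with a match. KRT10 had none, and instead held a TATA box, which 10.7% of all promoters hold in a window of this length. No match to TGANTCA (the AP1 motif), TTCNNNGAA (the STAT motif) or CACCTG (the E-box that SNAI and ZEB repressors bind) was found in the 5 windows, and 6.57%, 6.57% and 17.5% of all promoters hold these motifs. The starts not shown differed: the second CDH2 start had a TATA box and 1 AP1 match and no GC box, and the third LMNA start had 2 GC boxes and 1 match to the E-box. GC content was 58%, 68.8%, 66%, 34.8% and 46% in the order printed, with a median of 58% over all promoters. A match is a description of the letters only.

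Raw mean intensity per array was 539.9 to 666, and between 15741 and 16828 probes of an array were above background (detection p under 0.05). Across the genes tested, arrays of 1 group correlated at r 0.994 to 0.998 (genes are not independent replicates). IRF1, a direct target of IFNγ signalling, was higher with IFNγ by 5.21 on the log2 scale in Ad-GFP cells and by 5.24 in Ad-BRG1 cells. The SMARCA4 probe did not separate the viruses (log2 difference −0.20, adjusted p = 0.109, untreated, and −0.03, adjusted p = 0.834, with IFNγ). Its position relative to the viral cDNA is not given in the sources used here, so it does not check the virus labels. The adrenal origin of the line was not visible in steroid genes: of 11 with a probe, only CYP11A1 passed the detection filter, and NR5A1, STAR and CYP17A1 were above background on 0 of 12 arrays.

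In untreated cells BRG1 raised 5 of the 6 tested members and lowered 1. NES and KRT18 rose most, LMNA and CDH2 more than 2-fold, VIM by 1.20-fold, and KRT10 fell. The background is high: 57.1% of all genes tested were called in this comparison, 26.7% higher and 30.3% lower, so the number of members called says little. Calls of 2-fold or more were fewer, at 7.05% of all genes (4.84% higher), and 4 of the 6 tested members were among them, all higher. The median log2 difference of the 6 members was 1.46, also with NES at its bound, against −0.03 over all genes. NES passed the detection filter through its Ad-BRG1 arrays alone, and the other 5 tested members were above background on all 12 arrays. The members were chosen with earlier results of these data known, so the 4 of 6 and the median describe the members and are no test. Fewer expressing cells and less RNA per cell cannot be told apart in these bulk samples.

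**Figure D1:**
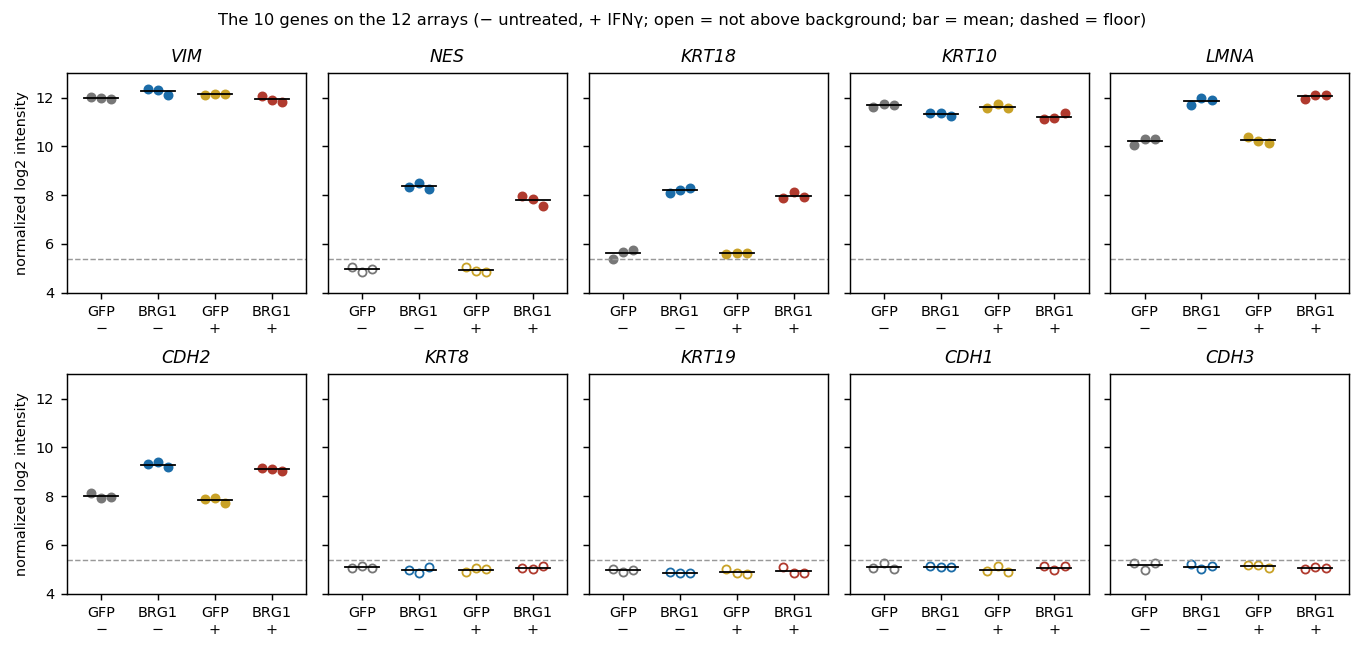
Normalized log2 intensity (y) of the probe that stands for each of the 10 genes on the 12 arrays, by group (x; GFP or BRG1 virus, − untreated, + IFNγ), with the group mean as a bar, open points for arrays with a detection p of 0.05 or more, and the mean detection floor dashed. NES, KRT18, LMNA and CDH2 lie higher on every Ad-BRG1 array than on every Ad-GFP array, VIM and KRT10 differ by a fraction of a log2 unit, and KRT8, KRT19, CDH1 and CDH3 stay under the floor in all 4 groups. Within a treatment, the virus groups did not overlap for 62.8% of all genes untreated and 65.3% with IFNγ.

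With IFNγ present, BRG1 raised 4 tested members and lowered 2, against 61.1% of all genes called (28.3% higher, 32.8% lower). The means compared come from 6 other arrays. Normalization, detection filter and the estimate of spread are shared with the untreated comparison, so this is not an independent repeat. The same 4 genes, NES, KRT18, LMNA and CDH2, were called 2-fold or more higher, where 8.41% of all genes were called at that size in either direction and 5.56% higher. The member that changed sides was VIM. The median of the 6 was 1.52 on the log2 scale, and that of all genes −0.03.

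VIM was the member with the smallest response to BRG1. Its normalized log2 intensity was 12.03, 12.003 and 11.96 on the untreated Ad-GFP arrays and 12.34, 12.31 and 12.11 on the untreated Ad-BRG1 arrays. After IFNγ the arrays gave 12.12, 12.17 and 12.16 in Ad-GFP cells and 12.05, 11.91 and 11.84 in Ad-BRG1 cells. All 12 arrays were far above background, so vimentin mRNA was present with and without BRG1. The whole range over the 12 arrays was only 11.84 to 12.34. Within it the groups did not overlap in either BRG1 comparison, as for 62.8% of all genes untreated and 65.3% with IFNγ, nor in either IFNγ comparison, as for 28.1% of all genes in Ad-GFP and 42.9% in Ad-BRG1 cells.

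BRG1 raised VIM by 0.26 (SE 0.08, adjusted p = 0.0114) in untreated cells, a 1.20-fold difference. With IFNγ the sign turned, and VIM was lower in Ad-BRG1 cells by −0.21 on the log2 scale (SE 0.08, adjusted p = 0.0282), a level 1.16-fold under Ad-GFP. A second VIM probe gave 0.35 (adjusted p = 0.00311, fit over all named probes) without IFNγ and −0.09 (adjusted p = 0.341) with IFNγ. The decrease under IFNγ is therefore called by 1 of 2 probes. It was also not called when the probes were averaged (−0.15, adjusted p = 0.0821), nor without any one of replicates 2 and 3 of either IFNγ group (adjusted p = 0.0689 to 0.110).

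**Figure D2:**
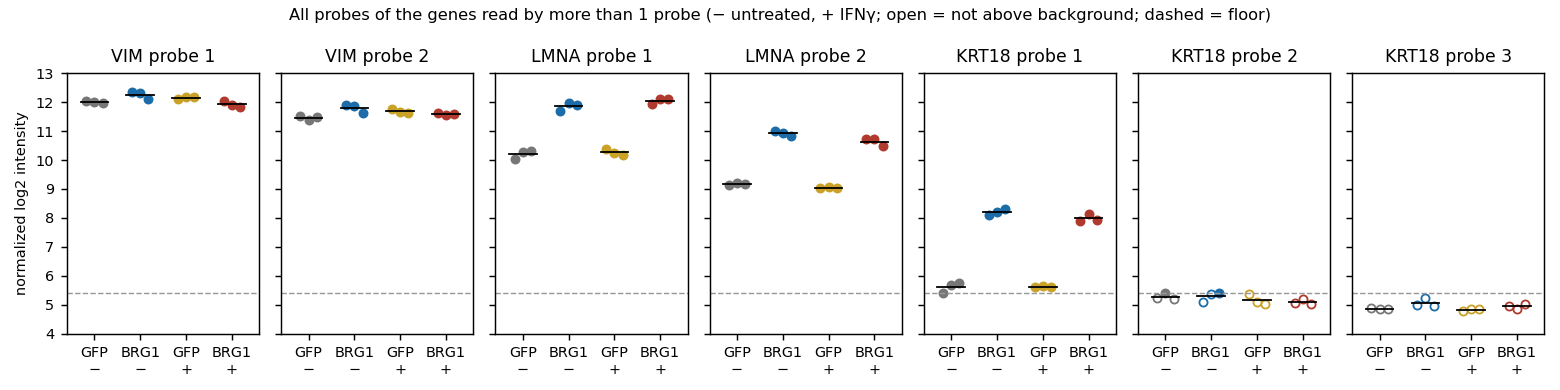
Normalized log2 intensity (y) on the 12 arrays for all probes of VIM, LMNA and KRT18 (probe 1 of each stands for the gene in the fit), by group (x), with group means as bars, open points not above background and the floor dashed. The group means of the VIM probes move in the same directions. The LMNA probes share the rise with BRG1 but differ in the direction of the IFNγ response. Of 3 KRT18 probes only probe 1 leaves the floor.

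NES showed the largest change of all members. Its log2 intensity on the untreated Ad-GFP arrays was 5.06, 4.85 and 4.96, with detection p 0.261, 0.769 and 0.452, so nestin mRNA was not above background there. On the untreated Ad-BRG1 arrays it was 8.32, 8.52 and 8.26. Under IFNγ the Ad-GFP arrays gave 5.06, 4.88 and 4.86, again not above background, and the Ad-BRG1 arrays 7.97, 7.84 and 7.55. The virus groups are far apart, where 62.8% of all genes untreated and 65.3% with IFNγ did not overlap. Within Ad-BRG1 cells every IFNγ array lies under every untreated array, and 42.9% of all genes did not overlap there.

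Against the detection floor of each array (5.35 to 5.44 on the log2 scale), NES was at least 7.97-fold higher with BRG1 in untreated cells (fitted log2 difference 3.41, SE 0.11, adjusted p = 1.13e-10). With IFNγ it was at least 5.20-fold higher (fitted 2.85, SE 0.11, adjusted p = 3.95e-10). The fitted values depend on the background correction, and quantile normalization of uncorrected intensities gave 1.80 and 1.41. The call held under all 21 alternatives in both comparisons.

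Of the type I keratins, KRT18 was raised and KRT10 lowered by BRG1. KRT18 read 5.40, 5.67 and 5.76 on the untreated Ad-GFP arrays and 8.11, 8.21 and 8.29 on the untreated Ad-BRG1 arrays. With IFNγ it read 5.60, 5.63 and 5.61 against 7.88, 8.15 and 7.93. The Ad-GFP arrays were only just above background, with detection p between 0.0211 and 0.0408, and no Ad-GFP array reached any Ad-BRG1 array. Of all genes, 62.8% untreated and 65.3% with IFNγ had virus groups that did not overlap.

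KRT18 was higher with BRG1 by 2.59 (SE 0.10, adjusted p = 4.73e-10), or 6.02-fold, in untreated cells and by 2.37 (SE 0.10, adjusted p = 8.03e-10), or 5.17-fold, with IFNγ. Without background correction these differences were 1.34 and 1.19. The rise rests on 1 of 3 probes. The second was above background on 2 of 12 arrays, 1 untreated array of each virus, with group means of 5.28 (Ad-GFP) and 5.30 (Ad-BRG1) in untreated cells. The third was above background on 0 of 12 arrays. KRT18 has many pseudogenes, and which transcripts each probe binds was not tested.

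KRT8, the type II partner of KRT18 and its neighbour in the genome, stayed at background in all 4 groups, with raw intensity 119 to 148 and a detection p of 0.161 or more. KRT19, a type I keratin of simple and ductal epithelia, did the same, with raw intensity 113 to 141 and detection p 0.240 to 0.848. A change of KRT8 or KRT19 was not detectable with these probes.

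KRT10, a type I keratin best known from the upper epidermis, was well above background on every array. It read 11.60, 11.76 and 11.68 in untreated Ad-GFP cells and 11.36, 11.38 and 11.25 in untreated Ad-BRG1 cells. With IFNγ it read 11.58, 11.72 and 11.58 against 11.13, 11.16 and 11.35. The virus groups did not overlap with either treatment, as for 62.8% of all genes untreated and 65.3% with IFNγ, while the treatment groups of each virus did. KRT10 was lower with BRG1 by 1.27-fold untreated (log2 difference −0.35, SE 0.08, adjusted p = 0.00214) and by 1.33-fold with IFNγ (−0.41, SE 0.08, adjusted p = 0.000571). KRT1, its usual type II partner, was above background on 0 of 12 arrays.

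LMNA, which encodes lamin A and lamin C, was read by 2 probes that moved together with BRG1. The brighter read 10.05, 10.29 and 10.31 on the untreated Ad-GFP arrays and 11.70, 11.97 and 11.91 on the untreated Ad-BRG1 arrays. With IFNγ it read 10.39, 10.23 and 10.16 against 11.92, 12.12 and 12.09. The lowest Ad-BRG1 array thus lay above the highest Ad-GFP array by more than a log2 unit. Virus groups that did not overlap, by any distance, were found for 62.8% of all genes untreated and 65.3% with IFNγ.

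BRG1 raised LMNA by 1.65 (SE 0.10, adjusted p = 3.61e-08), or 3.13-fold, untreated and by 1.78 (SE 0.10, adjusted p = 1.41e-08), or 3.44-fold, with IFNγ. The second probe gave 1.75 (adjusted p = 1.76e-09) and 1.59 (adjusted p = 3.36e-09). The B-type lamins, the other building blocks of the lamina, gave −0.10 (adjusted p = 0.264) for LMNB1 and 0.02 (adjusted p = 0.833) for LMNB2 in untreated cells, neither called.

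Of CDH1, CDH2 and CDH3, only CDH2 was above background. It read 8.14, 7.93 and 7.98 on the untreated Ad-GFP arrays and 9.30, 9.38 and 9.20 on the untreated Ad-BRG1 arrays. With IFNγ it read 7.90, 7.93 and 7.70 against 9.16, 9.10 and 9.01. N-cadherin mRNA was present in all groups and higher on each Ad-BRG1 array than on any Ad-GFP array. The virus groups also did not overlap for 62.8% of all genes untreated and 65.3% with IFNγ. The difference was 1.28 (SE 0.08, adjusted p = 7.42e-08), or 2.43-fold, untreated and 1.25 (SE 0.08, adjusted p = 7.71e-08), or 2.37-fold, with IFNγ.

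E-cadherin was not detected in any group, with CDH1 raw intensity 119.7 to 153 and detection p 0.0896 to 0.688. P-cadherin, whose gene CDH3 lies beside CDH1, had raw intensity 127 to 155 and detection p 0.0817 to 0.433. Mean log2 intensity of CDH1 in untreated cells was 5.10 ± 0.12 (SD, n = 3) with Ad-GFP and 5.11 ± 0.02 (SD, n = 3) with Ad-BRG1. Both lie under the detection floor, so these values give no level, and with the detection filter removed neither gene was called in any comparison.

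**Figure D3:**
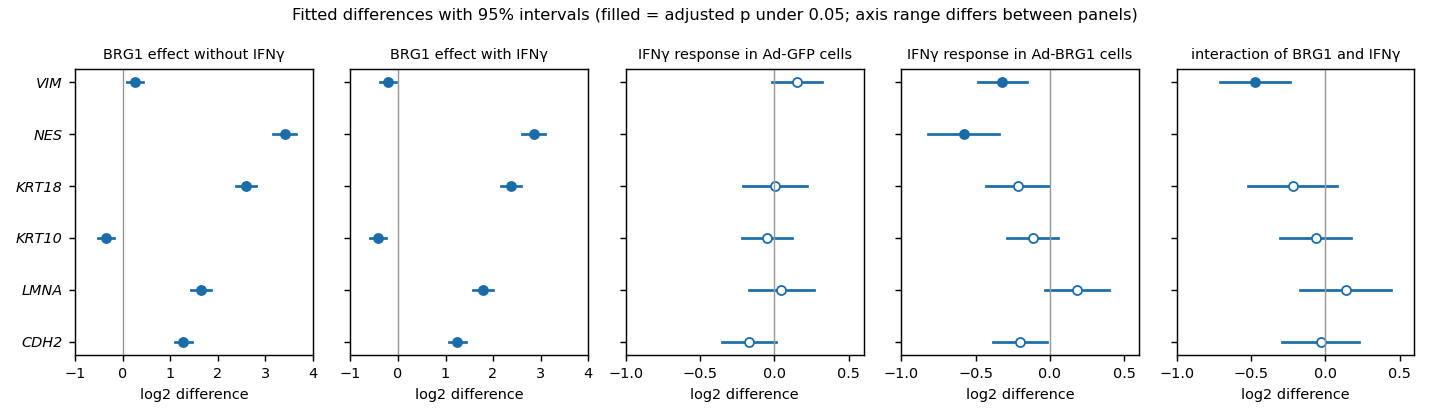
Fitted log2 difference (x) with its 95% interval for the 6 tested members (y) in each of the 5 contrasts, filled where the adjusted p was under 0.05, with NES left out of the 2 contrasts that need its level in both Ad-GFP groups. The BRG1 effects of NES, KRT18, LMNA and CDH2 lie between 1.25 and 3.41, and the IFNγ responses of all 6 lie between −0.58 and 0.18 in Ad-BRG1 cells and those of the 5 others than NES between −0.17 and 0.15 in Ad-GFP cells.

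With IFNγ alone no member passed the test. In Ad-GFP cells 0 of the 6 tested members were called by limma, where 4.07% of all genes were. At an unadjusted p under 0.05 the count was also 0 of 6, with 1 probe per gene. The second VIM probe, in the limma fit over all named probes, gave 0.23 (95% interval 0.05 to 0.40, unadjusted p = 0.0175, adjusted p = 0.160). NES was at background in both Ad-GFP groups, so a response of NES was not measurable there. Among the probes that stand for a gene, the largest differences were −0.17 for CDH2 (95% interval −0.35 to 0.01, adjusted p = 0.292) and 0.15 for VIM (−0.01 to 0.32, adjusted p = 0.303). The intervals of KRT18, KRT10 and LMNA lay within −0.22 and 0.26.

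In Ad-BRG1 cells IFNγ lowered NES and VIM, 2 of the 6 tested members, against 32.7% of all genes called (13.1% higher, 19.6% lower). NES fell by 0.58 on the log2 scale (SE 0.11, adjusted p = 0.00234), a level 1.49-fold lower. VIM fell by 0.32 (SE 0.08, adjusted p = 0.00828), or 1.25-fold, and its second probe gave −0.22 (adjusted p = 0.0610). The other values were −0.20 for CDH2 (adjusted p = 0.0805), −0.22 for KRT18 (adjusted p = 0.108), −0.12 for KRT10 (adjusted p = 0.273) and 0.18 for LMNA (adjusted p = 0.171). The LMNA probes disagreed here, since the second gave −0.29 (adjusted p = 0.0130).

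The interaction is the response to IFNγ with BRG1 less the response without it. Of the 5 members measured in all 4 groups it was called for VIM, where 8.15% of all genes were called (4.32% higher, 3.83% lower). For VIM it was −0.47 (SE 0.11, adjusted p = 0.0230), and its second probe gave −0.44 (adjusted p = 0.0405). The VIM call was not firm, since without single arrays its adjusted p reached 0.0598. NES was not above background in either Ad-GFP group, so no response to IFNγ could be measured there and its interaction only restates its fall in Ad-BRG1 cells. The interactions of KRT18, KRT10, LMNA and CDH2 lay between −0.22 and 0.14, with none called.

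VIM also followed a spread of the arrays that the groups do not explain. The main axis of variation among arrays of 1 group held 32.7% of the within-group variance, and VIM's deviations from its group means followed it with r = 0.92 over 12 arrays. The r was 0.67 for NES and 0.63 for CDH2, and −0.33, −0.29 and −0.06 for LMNA, KRT18 and KRT10. The score was highest on untreated Ad-BRG1 replicates 2 and 1 (16.8 and 12.6) and lowest on replicates 3 and 2 of Ad-BRG1 with IFNγ (−19.3 and −7.47). These are also the highest and lowest VIM arrays. The part of this axis in the VIM and NES values was not tested.

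**Figure D4:**
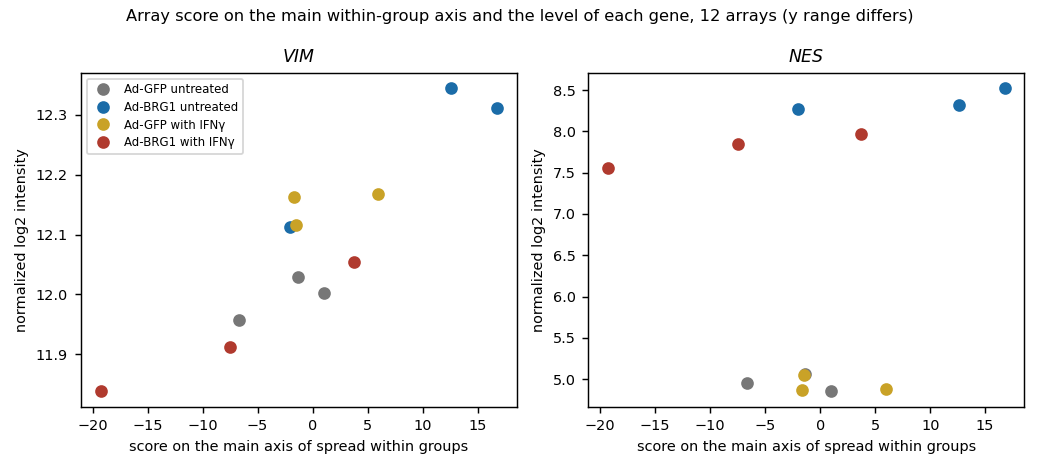
Normalized log2 intensity (y) of VIM and NES against each array's score on the main axis of spread within groups (x, arbitrary units), with 1 point per array coloured by group. The sign of the axis was set so that VIM follows it. Over the 12 arrays VIM rises along the axis (r = 0.90), from 11.84 at a score of −19.3 to 12.31 at 16.8, though not step by step within each group, whereas NES is split by virus first.

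The members fell into patterns over the 12 arrays, given here as Pearson r between genes that share arrays and groups. KRT18, NES, LMNA and CDH2 correlated with each other at 0.96 to 0.99, and KRT10 with each of them at −0.91 to −0.87. These r values largely restate the BRG1 differences above, with NES at background in both Ad-GFP groups, and are no separate result. VIM correlated with the other 5 at −0.01 to 0.20. The genes with the pattern most like VIM among all genes tested were PFN2 (r = 0.96, n = 12), which encodes an actin-binding profilin, MSANTD3 (0.94), the ribosomal protein gene RPL23A (0.93), ARMCX5 (0.93) and RUNDC1 (0.91). The most opposite were ZNF800 (−0.96), CKAP2L (−0.96), CWC27 (−0.95), the phosphatase gene PTPN12 (−0.94) and TRIM33 (−0.94). With group means removed, r with VIM was still 0.79 to 0.93 for the genes most like it and −0.97 to −0.89 for the most opposite. The likeness is therefore also one among arrays of the same group, and is not only a shared response to BRG1 or IFNγ.

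Few other filament genes were above background. Of 10 other type III and IV genes, 3 were tested. Against 26.7% of all genes called higher with BRG1 in untreated cells, 2 of the 3 rose. These were SYNM, encoding synemin, a partner of vimentin and desmin (1.38, 2.60-fold, adjusted p = 5.43e-08), and INA, encoding the neuronal filament protein internexin (1.30, 2.47-fold, adjusted p = 1.62e-06). PRPH, for peripherin, gave 0.05 (adjusted p = 0.665). IFNγ in Ad-BRG1 cells lowered INA (−0.60, adjusted p = 0.00316) and raised PRPH (0.58, adjusted p = 0.00113) and SYNM (0.29, adjusted p = 0.0257). The interaction was −0.83 for INA (adjusted p = 0.0127) and 0.51 for PRPH (adjusted p = 0.0458).

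Of 23 other keratins with a probe, 5 were tested, and 1 was called with BRG1, where 57.1% of all genes were called untreated and 61.1% with IFNγ. KRT80, a type II keratin of many epithelia, was not above background with Ad-GFP and at least 2.36-fold higher with BRG1 in untreated cells (adjusted p = 3.25e-08), and at least 1.48-fold higher with IFNγ (adjusted p = 2.25e-06). KRT80 passed the detection filter through its Ad-BRG1 arrays alone. IFNγ lowered it in Ad-BRG1 cells by −0.63 on the log2 scale (adjusted p = 0.000389). KRT5, KRT7, KRT14 and KRT20, which mark basal and simple epithelia, were above background on 0 of 12 arrays.

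**Figure D5:**
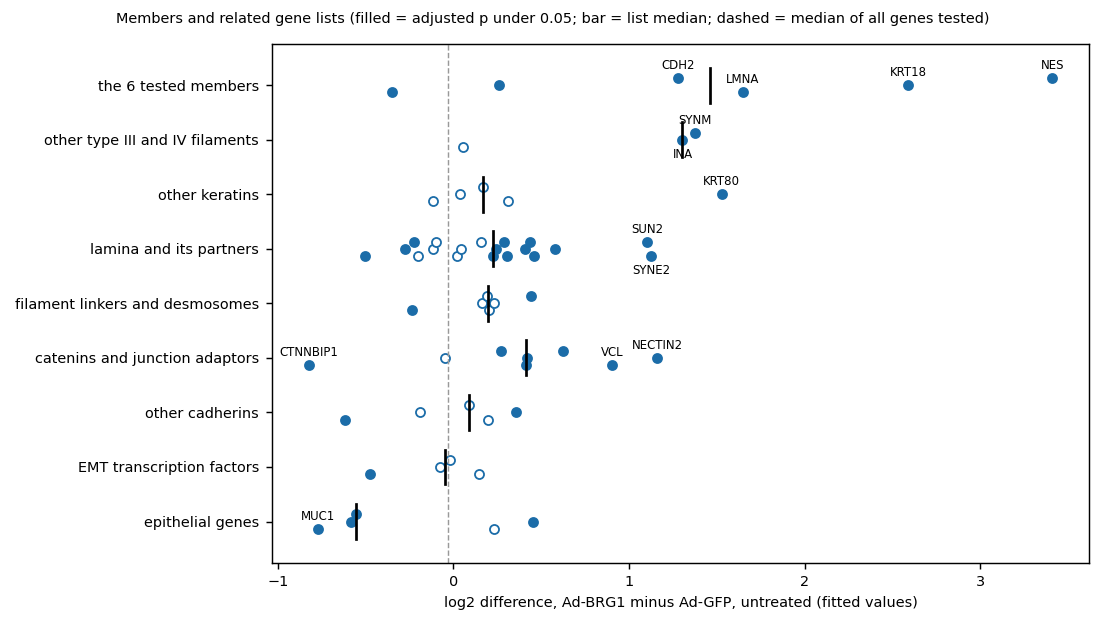
Fitted log2 difference between untreated Ad-BRG1 and Ad-GFP cells (x) for each tested gene of the members and of 8 related lists (y), filled where the adjusted p was under 0.05, with list medians as bars and the median of all genes dashed. The members' median of 1.46 and that of the other type III and IV filaments (1.30) lie to the right, the lists of cadherins and EMT factors lie near 0, and the epithelial list lies at −0.55.

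All 19 genes of the nuclear lamina list were tested, and 10 rose and 3 fell with BRG1 in untreated cells, where 57.1% of all genes were called, with a list median of 0.23. The largest rises were in the outer nuclear membrane gene SYNE2 (1.13, 2.18-fold, adjusted p = 6.64e-05), its inner membrane partner SUN2 (1.10, 2.15-fold, adjusted p = 3.94e-06), LEMD3 (0.58, adjusted p = 2.45e-05), an inner membrane protein, and the prelamin-processing protease gene RCE1 (0.46, adjusted p = 0.000219). ICMT, which methylates prelamin, fell (−0.50, adjusted p = 0.000116), as did TMPO, encoding the LAP2 proteins (−0.28, adjusted p = 0.00263), and BANF1, encoding a chromatin-binding partner of the lamina (−0.22, adjusted p = 0.00553). With IFNγ, 9 rose and 3 fell with BRG1, where 61.1% of all genes were called. SYNE2 (1.55, adjusted p = 3.56e-06) and SUN2 (1.32, adjusted p = 6.96e-07) again rose most. IFNγ in Ad-BRG1 cells lowered LBR, the lamin B receptor gene (−0.32, adjusted p = 0.00436), and raised ICMT (0.30, adjusted p = 0.0114), among 5 of 19 called, against 32.7% of all genes.

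Of the 8 tested catenin and junction genes, 6 rose and 1 fell with BRG1 in untreated cells, where 26.7% of all genes were called higher and 30.3% lower, with a median of 0.42. NECTIN2, a junctional adhesion receptor (1.16, 2.23-fold, adjusted p = 3.08e-08), VCL, encoding the actin linker vinculin (0.90, 1.87-fold, adjusted p = 1.18e-06), CTNNAL1 (0.63, adjusted p = 8.52e-05) and CTNNB1, encoding beta-catenin (0.42, adjusted p = 0.000273), rose. CTNNBIP1, an inhibitor of beta-catenin, fell (−0.82, adjusted p = 9.54e-05). CTNNB1 was lower with IFNγ in Ad-BRG1 cells (−0.42, adjusted p = 0.00113), as was NECTIN1 (−0.60, adjusted p = 0.0145). With IFNγ, NECTIN2 (1.13, adjusted p = 3.35e-08) and VCL (0.82, adjusted p = 2.18e-06) were again higher with BRG1, and CTNNBIP1 (−1.01, adjusted p = 1.53e-05) and NECTIN1 (−0.60, adjusted p = 0.00616) were lower.

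Among 5 other cadherins tested, CDH6 rose (0.36, adjusted p = 0.0248) and CDH7 fell (−0.61, adjusted p = 1.30e-05) with BRG1 in untreated cells, with a median of 0.09. Of all genes, 57.1% were called there and 61.1% with IFNγ, which is also the background for the linker and desmosome genes below. With IFNγ, CDH6 (0.61, adjusted p = 0.000880) and CDH19 (at least 1.19-fold, adjusted p = 0.0140) were higher and CDH7 lower (−0.82, adjusted p = 8.60e-07). CDH19 passed the detection filter only through the Ad-BRG1 arrays with IFNγ, the group where it is higher, so its call is no independent support. IFNγ lowered CDH7 in Ad-BRG1 cells (−0.43, adjusted p = 0.00117). Of 6 tested linker and desmosome genes, JUP, encoding plakoglobin, rose (0.44, adjusted p = 0.000834) and PKP4 fell (−0.23, adjusted p = 0.00425). Under IFNγ, DST (0.61, adjusted p = 0.00272) and PKP2 (0.38, adjusted p = 0.00536) were higher with BRG1 and PLEC lower (−0.40, adjusted p = 0.00691). IFNγ in Ad-BRG1 cells lowered JUP (−0.66, adjusted p = 0.000197) and PLEC (−0.65, adjusted p = 0.00115), the gene for plectin, which links vimentin to other structures. PLEC also had a called interaction (−0.60, adjusted p = 0.0359). Among the desmosomal cadherins, DSG4 was above background on 12 of 12 arrays and not called with BRG1 (0.16, adjusted p = 0.393, untreated), DSG1 was above background on 4 and DSC2 on 2, and DSG2, DSG3, DSC1 and DSC3 on 0.

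The factors best known for repressing CDH1 were mostly at background: SNAI1, SNAI2, SNAI3 and ZEB1 were above background on 0 of 12 arrays. In untreated cells 57.1% of all genes were called with BRG1, 26.7% higher and 30.3% lower. Of 4 tested factors of epithelial-mesenchymal transition, TCF3 fell (−0.47, adjusted p = 0.000579), and ZEB2 (0.15, adjusted p = 0.209) and TWIST1 (−0.02, adjusted p = 0.909) were not called. With IFNγ, TCF3 (−0.78, adjusted p = 8.31e-06) and FOXC2 (−0.25, adjusted p = 0.0380) were lower with BRG1. Of 5 tested epithelial genes, the protease inhibitor gene SPINT2 rose in untreated cells (0.45, adjusted p = 0.000176), against the same shares of all genes. The mucin gene MUC1 (−0.77, adjusted p = 5.84e-05), the tight junction gene TJP1 (−0.58, adjusted p = 0.00111) and the polarity gene CRB3 (−0.55, adjusted p = 0.000496) fell. MUC1 rose with IFNγ, by 0.59 in Ad-GFP cells (adjusted p = 0.00728) and by 1.03 in Ad-BRG1 cells (adjusted p = 2.55e-05). Of the 18 epithelial genes with a probe, GRHL2, ESRP1, ESRP2, CLDN7, OVOL1, ST14, SPINT1 and RAB25 were above background on 0 of 12 arrays, whereas ELF3 was above background on 8, EPCAM on 6, CLDN4 and OCLN on 3 each and CLDN3 and OVOL2 on 1 each.

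Markers of other cell types moved with BRG1 as well, in untreated cells against 26.7% of all genes called higher and 30.3% lower. Of 10 fibroblast markers, 6 were tested and 3 rose in untreated cells: COL1A1 (at least 8.96-fold, adjusted p = 7.17e-11), PDGFRB (at least 2.46-fold, adjusted p = 5.00e-08) and THY1 (2.71-fold, adjusted p = 1.37e-07). COL1A1 and PDGFRB passed the detection filter through their Ad-BRG1 arrays alone. COL3A1, LUM and PDGFRA were not called there. With IFNγ, 3 of the 6 were higher with BRG1 and 1 lower, against 28.3% and 32.8% of all genes. The summed background-corrected intensity of the list was 3627 to 4036 on untreated Ad-GFP arrays and 4489 to 4735 on untreated Ad-BRG1 arrays, and COL1A2 and POSTN were at background on all 12. With IFNγ the ranges overlapped (3750 to 3826 against 3613 to 4374). Of 9 leukocyte markers with a probe, CD68 and CD79A were tested and rose, with a list sum of 1239 to 1343 on untreated Ad-GFP and 2037 to 2229 on untreated Ad-BRG1 arrays, and CD3E, ITGAM and NKG7 were at background on all 12 arrays. The brightest gene weighs most in such a sum. On untreated Ad-GFP arrays CD68 had a mean log2 of 10.10 against 6.66 for CD79A, and COL3A1 in the fibroblast list 11.65 against 8.41 for THY1. Of 9 endothelial markers, 4 were tested. TEK (0.96, adjusted p = 1.59e-05) and ESAM (0.36, adjusted p = 0.0151) rose, and ERG fell (−0.40, adjusted p = 0.00747). ESAM also passed the detection filter through its Ad-BRG1 arrays alone, and was above background on 1 of 3 untreated Ad-GFP arrays. Its call is therefore no independent support. KDR and CLDN5 were at background on all 12, and the list sum was 306 to 359 against 419.7 to 460.3. All 12 samples came from the SW-13 line, so these genes are read here as transcripts of that line. Their relation to the rise of NES, CDH2 and KRT18 was not tested.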

How the data were processed

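Cells of 4 groups were measured on 12 Illumina Human-WG6 arrays, 3 per group, with groups and replicate numbers taken from sample titles. The deposited raw values are probe intensity read by BeadStudio (version not stated), linear and not background-subtracted. The authors' detection p-value ranks each probe against negative control beads, and a second deposited set holds the same intensity after average normalization, equal to raw values times 1 constant per array (0.924 to 1.14).

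Raw intensities were background-corrected, quantile normalized and put on the log2 scale with neqc of limma 3.58.1 in R 4.3.3 (offset 16). Probes with detection p under 0.05 on all 3 arrays of a group were kept, and the one with the highest mean stood for its gene. Of the array's probes 27578 had 1 gene symbol, 13 several and 21212 none. Differences came from 1 limma model over 12 arrays (two-sided, 8 residual and 4.24 prior degrees of freedom), with Benjamini-Hochberg adjustment over 10333 genes, and calls were made under an adjusted p of 0.05. Precision is limited by the small number of arrays.

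A group with no array above background was raised to a floor, taken on each array from its dimmest detected probe, giving the bounds written as at least. Levels of different probes are not comparable. The members and lists were chosen with earlier results of these data known. All members were named, and in each list up to 4 genes per direction with the largest called BRG1 difference in untreated cells and up to 2 per direction in other contrasts. The VIM pattern named the 5 highest and 5 lowest correlations. Motifs were searched with Python 3.11.15 and figures drawn with matplotlib 3.10.9. Alternatives were 9 settings of background, filter, probe choice and fit, and leaving out each of the 12 arrays.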

Additional observations from a re-analysis of the deposited data

Results flagged for a closer look

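VIM was flagged because its response to IFNγ differed between Ad-GFP and Ad-BRG1 cells by the interaction term of the limma fit. The IFNγ response was 0.15 in Ad-GFP and −0.32 in Ad-BRG1 cells, and the difference was −0.47 (SE 0.11, adjusted p = 0.0230, 0.00434 to 0.0598 over the alternatives). Groups of 3 arrays were not tested for outlying arrays.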

How the results depend on the processing

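Of 630 member values under 21 alternatives, 603 kept their side of the threshold, 25 lost the call and 2 gained it. Of the values called in either fit, 0 changed sign. A value called in neither fit could change sign and still count as kept, as for LMNA with IFNγ in Ad-BRG1 cells (−0.05 to 0.25). Members called numbered 6 in untreated cells under all alternatives, 5 or 6 for BRG1 with IFNγ, 0 for IFNγ in Ad-GFP cells and 2 or 3 for IFNγ in Ad-BRG1 cells. For the interaction, where 2 members passed the threshold (VIM, and NES, whose value shows no difference in response because both Ad-GFP groups were at background), 1 was called with the deposited average normalization, 1 without the detection filter, 1 with all named probes tested, and 0 to 2 when single arrays were left out. VIM lost that call without any one of 7 of the 12 arrays. Over all genes, 421 were called for IFNγ in Ad-GFP cells, and 270 to 467 without single arrays, the fewest without untreated Ad-GFP replicate 2. For IFNγ in Ad-BRG1 cells 3379 were called, against 2183 with only the compared groups fitted and 2090 to 3676 without single arrays, the fewest without untreated Ad-BRG1 replicate 1. The interaction counted 842 genes, against 1270 with average normalization, 1460 with quantile normalization and no background correction, and 351 to 1591 without single arrays, the fewest without untreated Ad-GFP replicate 3. Average normalization also moved the share of higher calls from 46.3% to 54.9% (BRG1 with IFNγ), from 40.1% to 53.2% (IFNγ in Ad-BRG1 cells) and from 53% to 63.9% (interaction). Whether same-numbered arrays pair was not clear: 6 of 12 correlations of their deviations exceeded 0.1, with a range of −0.15 to 0.44. The main fit did not pair them. The replicate block raised the interaction count to 1338 and made CDH2 called for IFNγ in Ad-BRG1 cells (adjusted p = 0.0467), as did quantile normalization without background correction (adjusted p = 0.0399). A slide block was not run because the headers name no slides. Except for the values stated, the causes were not tested. The deposited detection p sets what low signal can show, so 4 members have no level here.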
